A study of Rattus norvegicus with 6 samples.

Results

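The hormone and secretory granule genes of the calcitonin-producing C cells were examined in the thyroid of non-pregnant (NP) rats and of rats in late pregnancy (LP, day 18). The genes were chosen by symbol, and all 10 of the 10 symbols sought were found among the 15388 genes of the count tables: the peptide hormone genes Calca and Calcb, the granins Chga, Chgb, Scg2 and Scg3, the prohormone convertases Pcsk1 and Pcsk2, and the receptor genes Ret and Gfra4. All 10 also passed the filter on low counts. The animals were adult Sprague-Dawley rats, with mating in the LP group as the only treatment named and no age in weeks, and 3 thyroid samples of each group were sequenced as polyA+ RNA. Thyroid tissue was taken without sorting of cells, so the RNA of C cells was measured mixed with that of all other cells of the tissue.

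C cells are neuroendocrine cells that lie between and beside the thyroid follicles. They secrete calcitonin, a peptide hormone that lowers blood calcium, from dense-core granules. Calca encodes calcitonin and, by alternative splicing, the neuropeptide alpha-CGRP, whereas Calcb encodes beta-CGRP. The granins pack the granules, the convertases cut prohormones inside them, and Ret, the receptor tyrosine kinase mutated in medullary thyroid carcinoma, works with Gfra4, the co-receptor for persephin. Read counts per gene do not separate calcitonin from CGRP transcripts of Calca.

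The counts summed to between 2752144 and 3449857 reads per library, and 3 reads, used here as the floor of detection, lay between 0.87 and 1.09 CPM (reads scaled to a fixed library total, with TMM where a level is called scaled). A chi-square test of the counts found no difference beyond sampling noise between replicates 2 and 3 of NP (chi-square per degree of freedom 1.02, p = 0.111) or of LP (0.995, p = 0.667), while replicate 1 stood apart from them (3.70 to 4.11). Means and SD below therefore treat replicates 2 and 3 as a single sample (n = 2 per group), and p-values over all 6 libraries measure only the spread between these libraries, which may be technical. Reads of a gene are listed in the order of replicates 1, 2 and 3. Each test below is edgeR's quasi-likelihood test of LP against NP on the 6 libraries, with Benjamini-Hochberg adjustment over 11738 genes, and a gene was called at an adjusted p-value below 0.05. SE and 95% intervals of log2 fold changes are from the same fit.

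Of the 10 genes, Calca and Pcsk2 fell and Scg2 and Gfra4 rose in LP, while the other 6 did not pass the test. This was 4 of 10 genes, where 27.0% of all genes tested were called, 15.3% as higher and 11.7% as lower. None of the 10 changed more than 2-fold, whereas 5.44% of all genes tested were called with a change of that size, 4.90% as higher and 0.537% as lower. The median log2 fold change of the 10 genes was -0.15, and that of all genes tested was -0.0089. When replicates 2 and 3 were summed to a single library per group, Calca and Scg2 were the only calls among the 10, and when replicate number entered the fit as a block, Chgb and Scg3 were called as lower beside the 4.

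The sequences before the start of the 4 called genes are shown because factors such as CREB, which acts on many neuroendocrine genes, bind in promoters. RefSeq promoter sequences (build GRCr8, not the rn5 build of the counts) were at hand for 7 of the 10 genes, namely Calca, Chgb, Scg2, Scg3, Pcsk2, Ret and Gfra4. Each line gives the 250 bases before the annotated start, 5′ to 3′ along the gene, and capitals mark the cAMP response element TGACGTCA or its half-site TGACG on either strand.
Calca (chr1:178317530-178317779, - strand): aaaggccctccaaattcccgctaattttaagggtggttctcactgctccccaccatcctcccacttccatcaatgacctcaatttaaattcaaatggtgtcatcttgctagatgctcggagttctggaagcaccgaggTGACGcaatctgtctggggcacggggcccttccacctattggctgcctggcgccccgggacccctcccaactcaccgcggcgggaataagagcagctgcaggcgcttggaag
Pcsk2 (chr3:151333688-151333937, + strand): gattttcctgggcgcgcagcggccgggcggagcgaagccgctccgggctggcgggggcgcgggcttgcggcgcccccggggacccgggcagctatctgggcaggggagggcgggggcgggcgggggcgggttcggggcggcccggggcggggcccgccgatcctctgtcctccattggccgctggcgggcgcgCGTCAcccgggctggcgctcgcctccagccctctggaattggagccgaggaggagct
Scg2 (chr9:88256867-88257116, - strand): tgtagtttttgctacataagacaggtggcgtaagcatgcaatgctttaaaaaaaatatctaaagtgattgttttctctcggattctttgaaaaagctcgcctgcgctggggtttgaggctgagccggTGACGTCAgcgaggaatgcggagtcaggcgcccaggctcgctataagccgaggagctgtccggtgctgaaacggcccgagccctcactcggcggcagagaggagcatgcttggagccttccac
Gfra4 (chr3:138710957-138711206, - strand): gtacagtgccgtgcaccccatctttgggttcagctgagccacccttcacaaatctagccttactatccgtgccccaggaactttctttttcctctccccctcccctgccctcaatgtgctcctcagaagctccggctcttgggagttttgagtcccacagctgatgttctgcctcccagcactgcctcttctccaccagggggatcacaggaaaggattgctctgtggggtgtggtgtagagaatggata
The window of Scg2 held the whole element TGACGTCA, which was found in 1.59% of 33469 promoters of the same length. It lay between 123 and 116 bases before the start of the gene. The half-site TGACG, which is contained in the whole element and was found in 18.2% of promoters, was present without the whole element in Calca, Scg3 and Pcsk2. The windows of Chgb, Ret and Gfra4 held neither. The called genes that fell and those that rose thus both included a window with the half-site, and these letters are a description of the window only.

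Calca was among the most highly counted genes of the thyroid, ranking 5 of 15388 by reads. Calca (ENSRNOT00000055124) had 24010, 24505 and 24652 reads in NP against 21383, 21988 and 21895 in LP. Every LP library had fewer Calca reads than every NP library, although each LP library was deeper. Calca took 0.872% of the reads of NP replicate 1 (95% Wilson interval 0.862% to 0.884%) and 0.635% of those of LP replicate 3 (0.627% to 0.644%), the highest and the lowest of the 6 libraries, where the intervals cover counting error only. The scaled level of Calca was 8319.5 ± 367 CPM (SD, n = 2) for NP and 6669 ± 227 CPM for LP. This gave a log2 fold change of -0.32 (SE 0.026, 95% interval -0.37 to -0.26, edgeR adjusted p = 3.65e-08), and the fitted level fell by 19.6%. It was called under all 16 alternative settings, with log2 fold changes between -0.39 and -0.29, and the adjusted p-value was 4.09e-05 with replicates 2 and 3 summed. In bulk tissue, a smaller share of C cells in the tissue taken, for whatever reason, and less Calca RNA per C cell cannot be told apart.

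Calcb was counted far less. Calcb (ENSRNOT00000014764) had 119, 162 and 140 reads in NP against 142, 132 and 134 in LP, and the groups overlapped. Its level was 46.0 ± 4.9 CPM (SD, n = 2) in NP and 42.4 ± 4.2 CPM in LP, with a log2 fold change of -0.19 (95% interval -0.41 to 0.024, edgeR adjusted p = 0.189), or -0.11 without NP replicate 2. A fall of the size found for Calca lies inside this interval. Calcb is a close paralog of Calca, which had between 151 and 202 times as many reads in each library, so the count of Calcb is uncertain where reads fit both genes.

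**Figure D1:**
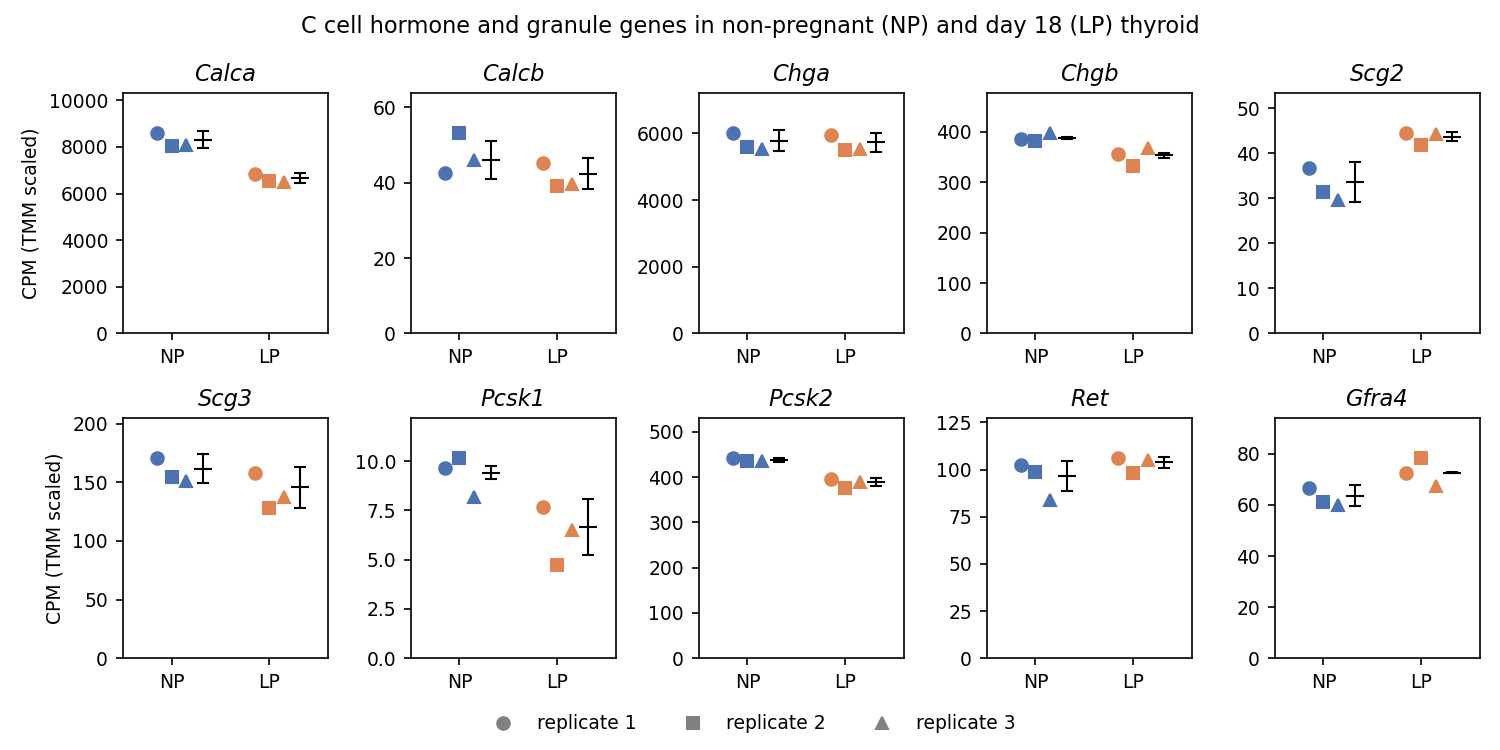
Level of each of the 10 genes in the 6 libraries, in TMM-scaled CPM on axes that start at 0, with a marker for each replicate. Black bars give mean ± SD with replicates 2 and 3 averaged (n = 2 for each group). Calca and Pcsk2 lie lower in every LP library, Scg2 and Gfra4 lie higher, and Chga overlaps between the groups.

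Among the granins, Scg2 rose while Chga, the most highly counted of them, had a value near 0 with a narrow interval. Chga (chromogranin A, ENSRNOT00000090857), a core protein of granules in many endocrine cells, had 16782, 17056 and 16847 reads in NP against 18589, 18594 and 18634 in LP. After scaling for depth the groups overlapped, at 5778 ± 309 CPM (SD, n = 2) in NP and 5729.7 ± 294 CPM in LP. The log2 fold change of Chga was -0.011 (SE 0.032, 95% interval -0.078 to 0.056, edgeR adjusted p = 0.84). It changed sign in 4 of the 16 alternatives, and it was called as lower with libraries scaled by their totals alone (log2 fold change -0.083) or by their Tg reads (-0.074). The fall found for Calca lies outside the interval of Chga.

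Scg2 (secretogranin II, ENSRNOT00000020219), the precursor of the peptide secretoneurin, had 103, 96 and 90 reads in NP against 139, 141 and 149 in LP. All LP libraries lay above all NP libraries also after scaling, from 33.7 ± 4.5 CPM (SD, n = 2) to 43.7 ± 0.98 CPM. Scg2 thus had a log2 fold change of 0.42 (SE 0.10, 95% interval 0.20 to 0.64, edgeR adjusted p = 0.0058), or 33.7% higher. The call held in 15 of 16 alternatives and was lost with DESeq2 in place of edgeR (adjusted p = 0.067, the highest of a range that began at 0.000776).

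Chgb (chromogranin B, ENSRNOT00000028892) had 1081, 1168 and 1208 reads in NP against 1117, 1120 and 1240 in LP. Its scaled level was 387.9 ± 2.4 CPM (SD, n = 2) against 353 ± 4.7 CPM, and the LP libraries lay below the NP libraries without overlap. Its log2 fold change of -0.14 (95% interval -0.25 to -0.028) missed the threshold over all genes (edgeR adjusted p = 0.0609), and a replicate block gave an adjusted p-value of 0.000741. Scg3 (secretogranin III, ENSRNOT00000014491), which binds Chga in the granule, had 477, 471 and 461 reads in NP against 495, 432 and 464 in LP. The scaled groups of Scg3 overlapped, and its log2 fold change was -0.17 (95% interval -0.32 to -0.012, edgeR adjusted p = 0.107, and 0.0108 with the replicate block). Chgb and Scg3 had a negative log2 fold change in all 16 alternatives and were called in 4 and 5 of them. The value of Scg3 was -0.10 without LP replicate 2 and -0.26 without LP replicate 1, where it was called (adjusted p = 0.00785).

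Both convertases had lower values in LP, and that of Pcsk2 passed the test. Pcsk2 (ENSRNOT00000007249), which cuts prohormones late in the secretory pathway, had 1237, 1328 and 1325 reads in NP against 1237, 1271 and 1311 in LP. Scaled for depth, it fell from 438.5 ± 4.9 CPM (SD, n = 2) to 389 ± 8.6 CPM, and no LP library reached an NP library. For Pcsk2 the log2 fold change was -0.18 (SE 0.048, 95% interval -0.28 to -0.074, edgeR adjusted p = 0.0111). The call was lost with replicates 2 and 3 summed (adjusted p = 0.0838) and without LP replicate 2 (0.0561), and its adjusted p-value ranged from 4.82e-06 to 0.0838 over the 16 alternatives.

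Pcsk1 (ENSRNOT00000015185), the convertase that acts earlier, was counted at 27, 31 and 25 reads in NP against 24, 16 and 22 in LP. The scaled level was 9.41 ± 0.33 CPM (SD, n = 2) in NP and 6.65 ± 1.4 CPM in LP, with no overlap of the groups. Its log2 fold change of -0.57 had a wide interval (-1.07 to -0.062) at this depth and did not pass the test (edgeR adjusted p = 0.0926, and 0.0524 to 0.366 over 15 alternatives).

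The receptor genes had positive values in LP, that of Gfra4 close to the threshold. Gfra4 (ENSRNOT00000047947) had 186, 187 and 183 reads in NP against 227, 264 and 227 in LP. The scaled level rose from 63.6 ± 4.1 CPM (SD, n = 2) to 72.7 ± 0.23 CPM, and every LP library lay above every NP library. For Gfra4 the log2 fold change was 0.22 (SE 0.077, 95% interval 0.055 to 0.38, edgeR adjusted p = 0.0454). It was called in 7 of 16 alternatives, with adjusted p-values between 0.0285 and 0.29, and was lost without NP replicate 2 (0.147), NP replicate 3 (0.169), LP replicate 1 (0.0952) or LP replicate 2 (0.21). It was also lost with replicates 2 and 3 summed (0.0904), without a filter (0.061), with library totals alone (0.166), with Tg scaling (0.196) and with DESeq2 (0.29).

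Ret (ENSRNOT00000047685) had 286, 301 and 255 reads in NP against 332, 331 and 355 in LP. The scaled groups overlapped, at 96.7 ± 7.8 CPM (SD, n = 2) and 103.9 ± 3.0 CPM. The log2 fold change of Ret was 0.12 (95% interval -0.034 to 0.28, edgeR adjusted p = 0.254), and it was called in 0 of the 16 alternatives, with a value of 0.033 without NP replicate 3. A rise of the size found for Gfra4 and no difference both lie inside this interval.

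**Figure D2:**
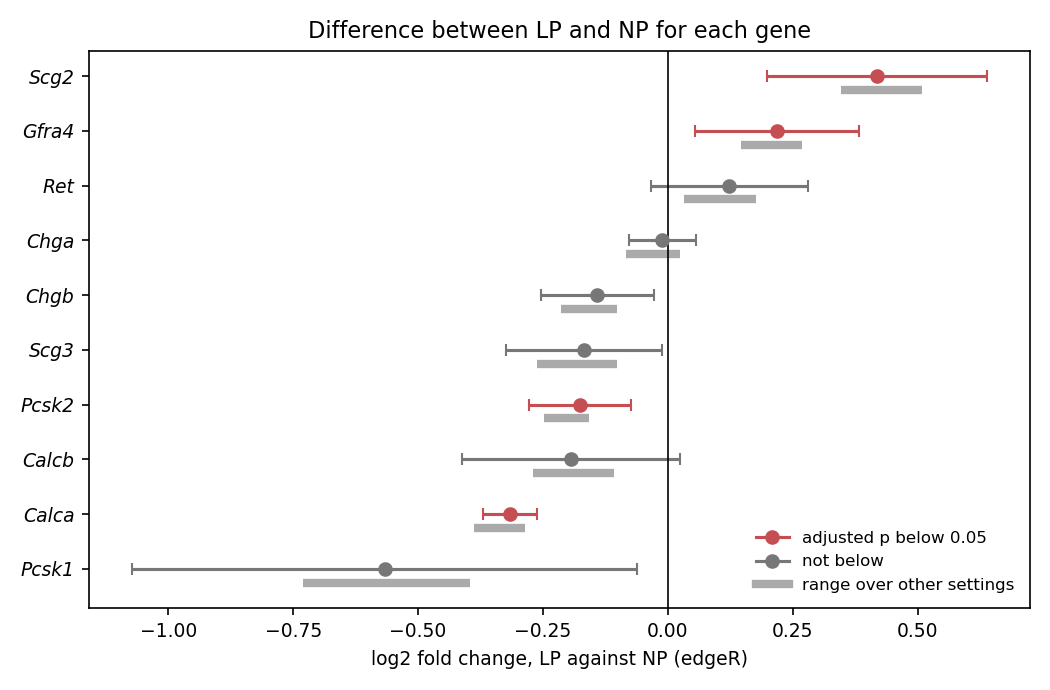
Log2 fold change of LP against NP for the 10 genes, with the 95% interval of the edgeR fit. Red points have an adjusted p-value below 0.05, and grey bars below each point span the values under the other settings. Calca has the narrowest interval on the lower side, at -0.37 to -0.26, and Scg2 the highest value, at 0.42.

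Since 6 of the 10 genes had groups that did not overlap, 4 with LP lower and 2 with LP higher, the share among all genes tested is the measure for this count: it was 40.1%, with 18.9% lower and 21.2% higher in LP. Within the range of all genes, the log2 fold change of Calca lay at percentile 13.0, that of Pcsk1 at 3.26 and that of Scg2 at 85.8. Across the 6 libraries, Pcsk2 followed Calca most closely of the 9 others (Pearson r = 0.98 of log2(CPM + 1)), and Scg2 had the most opposite course (r = -0.80). These correlations largely restate the difference between the groups, and the libraries of a group share it.

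**Figure D3:**
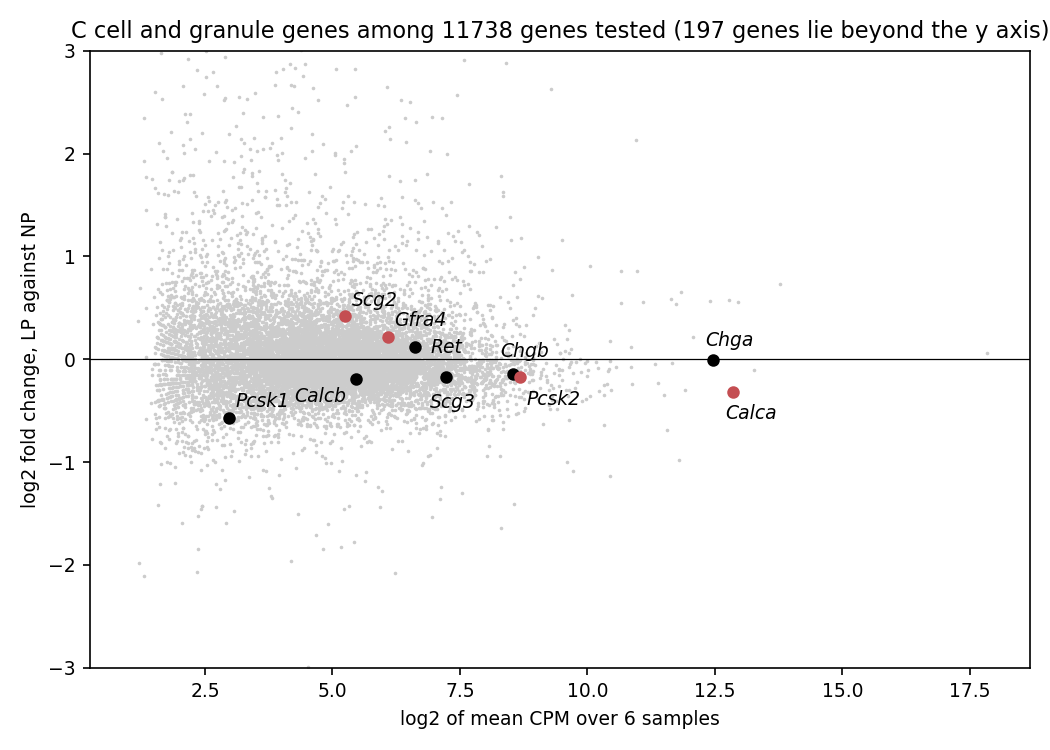
Log2 fold change of LP against NP plotted against the log2 of mean CPM for the 11738 genes tested, with the 10 genes labelled. Red points were called, black points were not, and 197 genes lie beyond the limits of 3 on the y axis. Calca and Chga lie far to the right, among the most highly counted genes.

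The relation of Calca to Chga was then taken within each library, where it does not depend on any scaling between libraries. Per 100 reads of Calca there were 69.9, 69.6 and 68.3 reads of Chga in NP and 86.9, 84.6 and 85.1 in LP. The groups did not overlap, at 69.4 ± 0.65 (SD, n = 2) against 85.9 ± 1.5, yet 3 libraries against 3 cannot give a 2-sided exact permutation p below 0.1, which was the value here (0.15 when adjusted over 3 such ratios, which were chosen after the counts were seen). With replicates 2 and 3 averaged (n = 2 per group), the exact permutation p was 0.333. Per 100 reads of Calca there were 5.15, 5.42 and 5.38 reads of Pcsk2 in NP and 5.79, 5.78 and 5.99 in LP, again without overlap. Together the 10 genes took between 1.53% and 1.61% of the reads of an NP library and between 1.28% and 1.36% of an LP library. Calca made up between 54.1% and 54.6% of these reads in NP and between 49.0% and 49.6% in LP.

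The parathyroid glands of the rat lie at the thyroid, and their chief cells also contain Chga. All 4 of 4 parathyroid markers were found and passed the filter. Pth, the gene of parathyroid hormone, had 12534, 12629 and 12633 reads in NP against 11375, 11334 and 11356 in LP, with a log2 fold change of -0.30 (SE 0.035, edgeR adjusted p = 3.42e-06). Per 100 reads of Calca there were between 51.2 and 52.2 reads of Pth in NP and between 51.5 and 53.2 in LP. These ranges overlapped (exact permutation p = 0.5, or 0.667 with replicates 2 and 3 averaged). Kl was also called as lower (log2 fold change -0.21, edgeR adjusted p = 0.0379), a call that held in 10 of 16 alternatives. It was lost with replicates 2 and 3 summed, with DESeq2, and without NP replicate 1, NP replicate 2, LP replicate 2 or LP replicate 3 (largest adjusted p = 0.231). Casr, the calcium-sensing receptor that C cells carry too, and Gcm2, which specifies parathyroid cells, had values of 0.096 and 0.18 and were not called. Gcm2 lay higher in every LP library than in every NP library, as did 21.2% of all genes tested, and was called in 2 of 16 alternatives. The summed level of the 4 markers, of which Pth makes up most, was 4552 to 4926 CPM in NP and 3793 to 4120 CPM in LP. The part of parathyroid cells in the values of Chga and of the other granule genes was not tested.

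**Figure D4:**
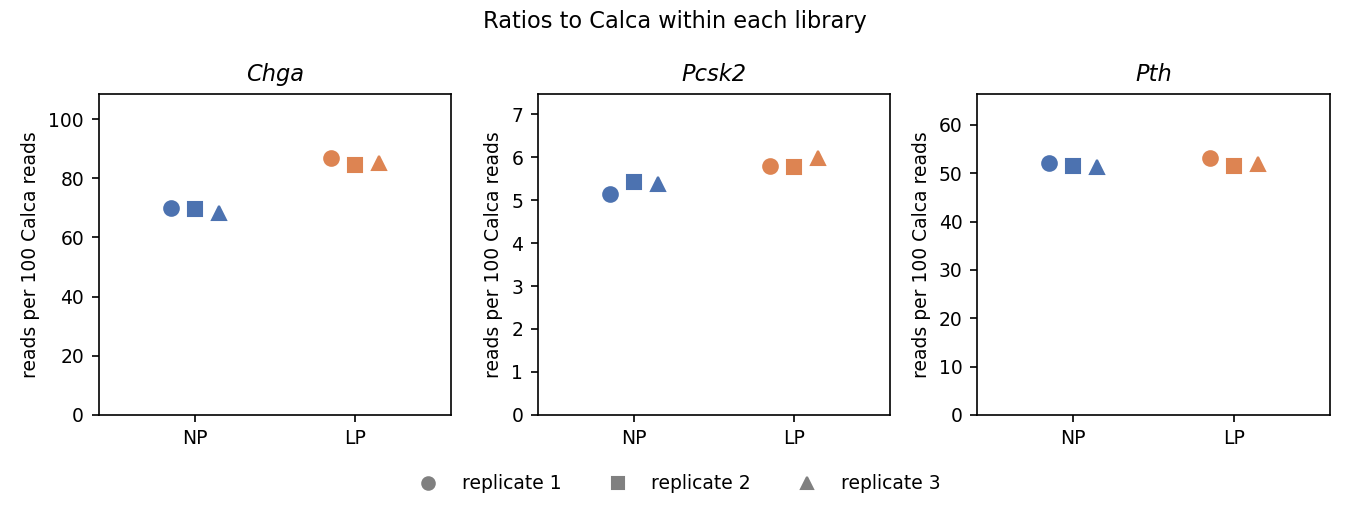
Reads of Chga, Pcsk2 and Pth per 100 reads of Calca in each library, on axes that start at 0. Chga lies between 68.3 and 69.9 in NP and between 84.6 and 86.9 in LP, Pcsk2 is also higher in LP, and Pth lies between 51.2 and 53.2 in all 6 libraries.

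Other genes of the C cell were then examined from a list of its regulators, receptors and markers. Of 19 genes listed, 15 were in the tables and 11 passed the filter, with a median log2 fold change of 0.077. None of the 11 was called by edgeR or by DESeq2, where edgeR called 27.0% of all genes tested. Ncam1 and Isl1, 2 of the 11, had an unadjusted p-value below 0.05, both with higher values in LP. Ncam1 alone was called under 3 alternatives, the replicate block among them but not the block with replicates 2 and 3 summed. Uchl1, a neuroendocrine ubiquitin hydrolase, had a log2 fold change of -0.037 (SE 0.079) and Casr one of 0.096 (SE 0.062). Sst, the somatostatin that some C cells store, had 84, 85 and 100 reads in NP against 110, 109 and 119 in LP, and did not pass the test (edgeR adjusted p = 0.27). The summed level of the list was 620.4 to 652.4 CPM in NP and 667 to 697 CPM in LP. The C cell genes Calca, Ret and Gfra4 were all above the floor in every library, and Tg, the follicular gene that defines thyroid tissue, took between 22.9% and 24.5% of the reads.

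Of 23 other genes of dense-core granules, 21 were in the tables and 18 passed the filter. By edgeR 6 of the 18 were called as lower and 1 as higher in LP, where 11.7% of all genes tested were called as lower and 15.3% as higher, and the median log2 fold change was -0.11. The 6 were Syt4, Ica1, Cadps2, Rph3al, Resp18 and Scg5, with log2 fold changes between -0.82 and -0.23. Syt4, a calcium-binding synaptotagmin of granules, had 50, 45 and 48 reads in NP against 29, 30 and 31 in LP (log2 fold change -0.82, SE 0.18, edgeR adjusted p = 0.00205). Ica1, a granule trafficking protein of neuroendocrine cells, had 235, 223 and 253 reads in NP against 170, 191 and 186 in LP (log2 fold change -0.53, SE 0.075, edgeR adjusted p = 3.63e-05). Resp18, an endocrine-specific luminal protein, fell from 236 ± 8.3 CPM (SD, n = 2) to 199 ± 13 CPM, and Scg5, the chaperone of Pcsk2, from 232 ± 19.9 CPM to 196 ± 8.5 CPM. With replicates 2 and 3 summed, Ica1, Resp18 and Syt4 were still called, and the calls of Cadps2, Rph3al and Scg5 were lost, as they were without NP replicate 1 or without LP replicate 3.

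Syt7, a calcium sensor of exocytosis and the 1 gene of this list that was called as higher, had 245, 246 and 269 reads in NP against 328, 360 and 389 in LP (log2 fold change 0.35, SE 0.066, edgeR adjusted p = 0.000605), and was called in 16 of 16 alternatives. Pam, which amidates the end of calcitonin and CGRP and had the most reads of the list, was at 891 ± 64 CPM (SD, n = 2) in NP and 799 ± 7.7 CPM in LP. Its log2 fold change of -0.13 missed the threshold (edgeR adjusted p = 0.0524), but Pam was called as lower in 8 of 16 alternatives, among them the replicate block with and without replicates 2 and 3 summed. Ica1, Cadps2, Rph3al, Syt7, and of the other lists Ncam1, Isl1, Sst, Pspn, Ramp2, Kl and Gcm2, were named after their values were seen. So were Myh1 and the neuronal and airway genes below the filter.

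**Figure D5:**
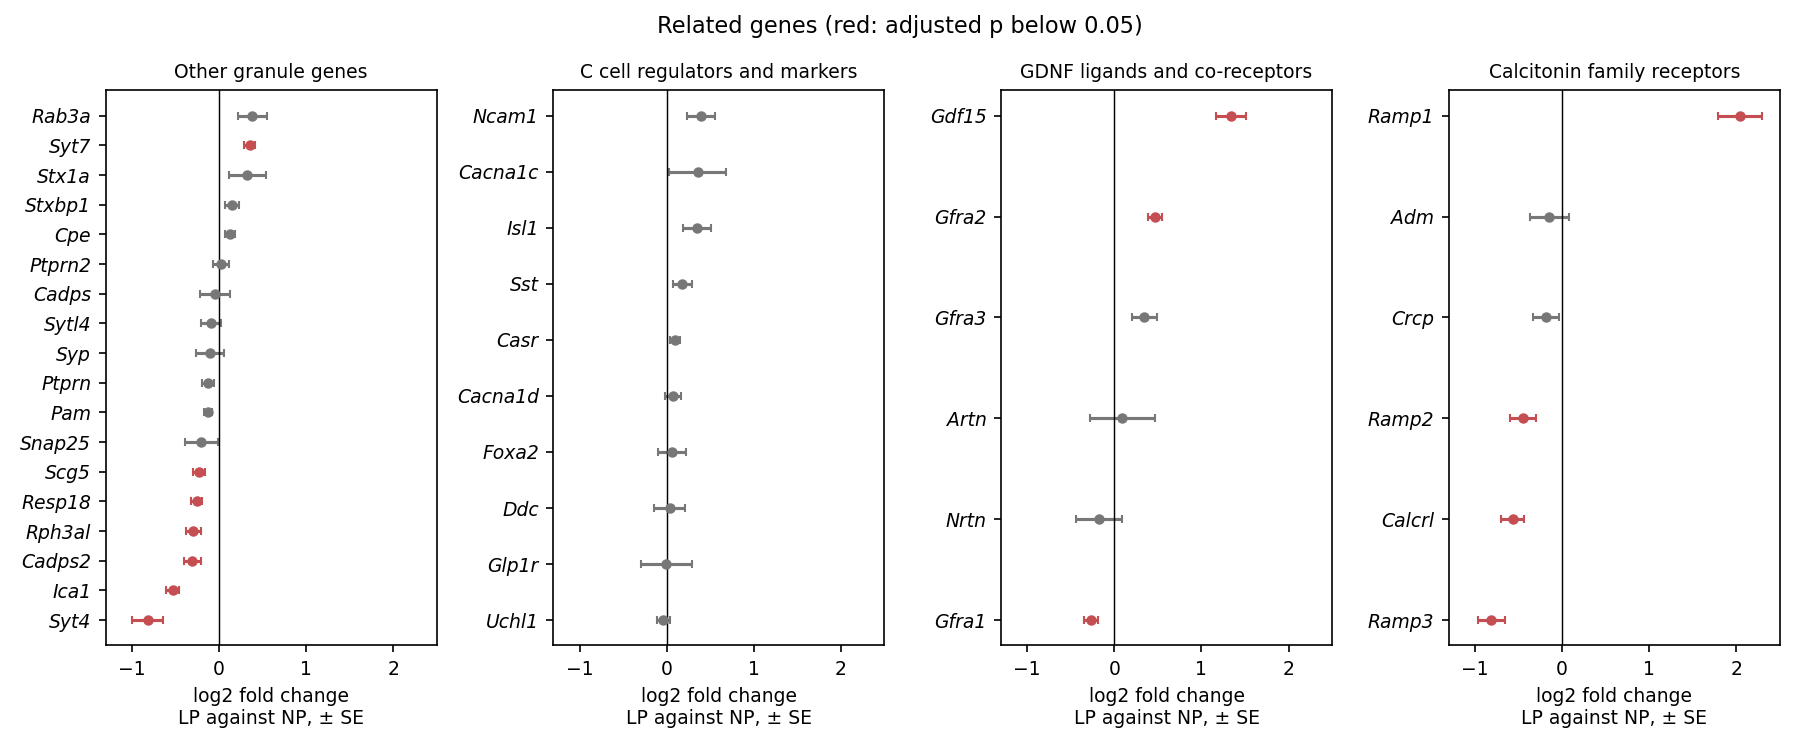
Log2 fold change ± SE of LP against NP for genes of 4 related lists that passed the filter on low counts, 1 gene of the C cell list left out, with genes called at an adjusted p-value below 0.05 in red. Of the other granule genes 6 are called lower and 1 higher, none of the C cell regulators and markers is called by edgeR, and Ramp1 and Gdf15 lie above 1.

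Among the partners of Ret, 7 of 9 genes listed were in the tables, Gdnf and Gfral being absent, and 6 passed the filter. Of these, 2 were called as higher and 1 as lower (median 0.22), beside 27.0% of all genes tested called either way. Gfra2, the co-receptor for neurturin, had 194, 221 and 176 reads in NP against 312, 302 and 293 in LP, a log2 fold change of 0.47 (SE 0.084, edgeR adjusted p = 0.000399). Gfra1, the co-receptor for GDNF, fell from 63.4 ± 1.8 CPM (SD, n = 2) to 52.2 ± 0.21 CPM (log2 fold change -0.27, edgeR adjusted p = 0.0143), a call that was lost with DESeq2 and without NP replicate 1 (largest adjusted p = 0.183). Gdf15, a stress-induced ligand whose receptor also signals through Ret, had 24, 28 and 37 reads in NP against 91, 81 and 79 in LP, a log2 fold change of 1.34 (SE 0.17, edgeR adjusted p = 1.06e-05). Gfra3 did not pass the test (0.34, adjusted p = 0.0926). Pspn, the ligand of Gfra4, had between 1 and 3 reads in each library, below the filter.

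Of the receptors and further peptides of the calcitonin family, 8 of 9 listed genes were in the tables and 6 passed the filter. Calcr, the gene of the calcitonin receptor itself, was the one not found. Of the 6, 1 was called as higher and 3 as lower (median -0.32), again beside 27.0% of all genes tested. Calcrl, which forms the CGRP receptor with Ramp1 and adrenomedullin receptors with Ramp2 or Ramp3, fell by 0.57 on the log2 scale (SE 0.14, edgeR adjusted p = 0.00478), and DESeq2 gave an adjusted p-value of 0.0518. Ramp3 had 97, 130 and 128 reads in NP against 52, 99 and 73 in LP, a log2 fold change of -0.81 (SE 0.16, edgeR adjusted p = 0.000737). Ramp2 fell by 0.45 on the log2 scale (edgeR adjusted p = 0.0375), and 9 of 16 alternatives called it. Ramp1 went the other way, with 6, 19 and 18 reads in NP against 54, 76 and 68 in LP, a log2 fold change of 2.04 (SE 0.25, edgeR adjusted p = 6.94e-06). With 6 reads in NP replicate 1, it passed the filter on low counts only with the help of LP libraries. Crcp, a further component of the CGRP receptor, was not called (-0.19, adjusted p = 0.402).

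Markers of other cell types that the tissue could hold were measured in the same libraries. The summed level of the 10 skeletal muscle genes found of 16 listed was 22.9 to 72.2 CPM in NP and 4014 to 4273 CPM in LP. Of the 10, 9 were higher in every LP library than in every NP library. Most of these 9, such as Myh1 with 0 reads in each NP library, passed the filter on low counts only through LP. Their count is therefore not set beside the share of all genes tested. The exception among the 10 was Acta1, with 0, 166 and 144 reads in NP against 0, 186 and 185 in LP. Acta1 makes up most of the summed level in NP replicates 2 and 3. With TMM computed without these genes, the log2 fold change of Calca was -0.32, that of Scg2 0.42, that of Pcsk2 -0.18 and that of Gfra4 0.21, and all 4 calls held. Of 12 follicular cell genes, 3 were called as higher and 4 as lower, beside 15.3% and 11.7% of all genes tested. Their summed level, of which Tg makes up most and which thus says little of the others, was 231800 to 250300 CPM in NP and 242000 to 258500 CPM in LP. Tg, the most highly counted of them, was not called (log2 fold change 0.063) but passed the test in 5 of 16 alternatives, the replicate block included. The summed level of the 10 neuronal genes found was 84.8 to 89.3 CPM in NP and 73.1 to 81.8 CPM in LP. Nefm had 20, 17 and 18 reads in NP against 6, 6 and 8 in LP, and Stmn2 12, 14 and 10 against 2, 3 and 4. Nefh, the most highly counted neuronal gene, had 178, 190 and 195 reads against 184, 208 and 196. Neither Nefh (log2 fold change -0.087) nor Prph (0.10) was called. Below the filter, Tubb3, Gap43, Nefl and Dbh had positive values, and Elavl3 and Elavl4 negative ones. Nefm, Stmn2 and the secretory airway genes named below passed the filter on low counts only through the group in which they were high. No share of genes called is therefore given for either list. The summed level of the 7 Schwann cell genes found was 50.1 to 59.7 CPM in NP and 83.0 to 95.5 CPM in LP, and Mbp, a myelin gene, was called as higher (log2 fold change 0.55, edgeR adjusted p = 0.00411). The summed level of the 7 airway genes found was 74.5 to 77.6 CPM in NP and 84.2 to 89.1 CPM in LP. Scgb3a1, Bpifa1 and Scgb1a1, all from secretory airway cells, had 1 to 8 reads in NP libraries and 15 to 34 reads in LP libraries. Sftpd, the most highly counted gene of this list, had 201, 213 and 196 reads in NP against 204, 199 and 215 in LP. It was not called (log2 fold change -0.13). Below the filter, Tekt1 (-0.75) and Scgb3a2 (-0.64) had negative values and Muc5b (0.53) a positive one. None of the 1 lymphoid and 3 adipocyte genes that passed was called by edgeR, beside 27.0% of all genes tested. The summed levels of the lymphoid genes (6.57 to 9.65 CPM in NP and 7.67 to 10.1 CPM in LP) and of the adipocyte genes (55.5 to 64.7 CPM and 59.3 to 71.9 CPM) overlapped. The part of nerve and airway cells in the values of Calca and the granins was not tested.

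The 3 genes whose level followed that of Calca most closely over the 6 libraries, among 7942 genes with a mean of at least 50 reads, were Calr, Cdc14a and U2af1 (Pearson r of log2(CPM + 1) 0.998 for each). In all, 819 of these genes had an r above 0.9, so this likeness singles out no gene.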

How the data were processed

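PolyA+ RNA from the thyroid was sequenced in 3 NP and 3 LP samples. The authors aligned reads to build rn5 by TopHat 1.4.0 and counted them per Ensembl gene model by HTSeq. The deposited values are raw read counts per gene, without normalization, each with a symbol and an Ensembl transcript identifier. The strand setting of the counting is not given in the sources used here.

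The main test was that of edgeR 4.0.16 under R 4.3.3 (TMM, default filter on low counts, glmQLFit and glmQLFTest, no block) with DESeq2 1.42.0 as an alternative. SE was taken as the absolute log2 fold change over the square root of F, and the 95% intervals used the total degrees of freedom of the fit. Exact permutation tests used SciPy 1.17.1. CPM was TMM scaled to library totals, of which 3 NP libraries had 2752144, 2965936 and 2958075 reads and 3 LP libraries 3224104, 3449857 and 3447439. The steps were tested on simulated counts. Gene lengths were not used, so genes were ranked only by reads, which depend on length.

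Libraries with equal replicate numbers deviated together from their group means, with correlations of 0.474, 0.21 and 0.176 for numbers 1, 2 and 3. Numbers 2 and 3 crossed gave 0.203 and 0.204, so the values set number 1 of both groups apart but do not pair numbers 2 and 3. The replicate block rests on these values, not on a pairing stated in the labels. The genes and lists were chosen with earlier results of these data known. Named from the lists were the 3 genes of highest mean CPM per list and those called with a fold change above 1.5, and for other cell types the 2 of highest mean CPM or those changed 2-fold in nerve, airway and parathyroid lists. For the other cell types, mainly summed levels are given. Some genes that this rule would name are not reported here.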

Additional observations from a re-analysis of the deposited data

How the results depend on the processing

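The log2 fold changes of 9 of the 10 genes kept their sign under all alternatives that gave a value, the exception being Chga, and Calca kept its call under all 16. Chga became positive when genes averaging under 50 reads were dropped (0.00021), and ranged from -0.055 to 0.025 over the replicates left out, positive without NP replicate 1 (0.025), LP replicate 2 (0.0070) or LP replicate 3 (0.0022). The number of the 10 genes called as higher was 2, against 1 when replicates 2 and 3 were summed, 1 when no filter was used, 1 under library totals alone or scaling on Tg reads, 0 under DESeq2, and 1 to 2 as single replicates were left out. The number called as lower was 2, and it was 1 with replicates 2 and 3 summed, 4 with the replicate block, 4 with the block and replicates 2 and 3 summed, 5 with library totals alone, 5 with scaling on Tg reads, and 1 to 3 as single replicates were left out. Beyond adding Chgb and Scg3, the block changed no call of the 10 genes, and edgeR's biological coefficient of variation was 0.0131 with it and 0.0645 without.

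Of the other granule genes, 6 were called as lower, 3 once replicates 2 and 3 were summed and 3 to 7 as single replicates were left out, and 1 was called as higher in each of these settings. Of the C cell list, 0 were called as higher, against 1 with the replicate block, 0 with the block and replicates 2 and 3 summed, 1 for genes averaging 50 reads or more and 0 to 1 as single replicates were left out. Scaling by library totals or by Tg reads moved the share of calls that were higher in LP, over all genes, from 56.6% to 40.5% and 43.9%, and the median log2 fold change to -0.081 and -0.072. The cause of the other changes was not tested. Pcsk1 had too few reads for the filter of a mean of 50.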
